A study of Mus musculus with 9 samples.

Results

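*Hsp90ab1*, which encodes the constitutive cytosolic chaperone HSP90-beta, and *Ppia*, which encodes the prolyl isomerase cyclophilin A, were followed in mouse heart RNA on 9 microarrays. They are 2 of 59709 probes that could be compared, and were selected as the probes with 20 spots per array that carry the RefSeq identifiers NM_008302 and NM_008907. Their probe names are CUST_6_PI419532418 and CUST_10_PI419532418. The array also carries 13 other genes in 20 spots each, and all 15 are genes of the kind used as loading references.

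The arrays comprised 3 groups of 3, with total RNA of cardiac tissue as the starting material throughout. The WT group came from B6SV129F1 wild-type mice. TAC mice had this strain label too, together with the words TAC surgery, an abbreviation that in cardiac work usually means constriction of the aortic arch to load the left ventricle with pressure. The CnA group had the strain label Myh6-CnA, by convention a transgene that drives calcineurin A from the promoter of a myosin heavy chain gene expressed in cardiomyocytes; the labels give neither its background strain nor its lines. No sham operation, age, sex, time after surgery or pooling of animals is given. The labels number the replicates without tying them to animals, so that p-values measure the spread between these arrays, which may be technical. The design sets the surgical and the transgenic group each against WT, and both against each other.

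HSP90 proteins are ATP-driven dimers that hold kinases, steroid receptors and other clients in a state ready for activation. They work with co-chaperones such as CDC37 and AHA1, and HSP90-beta is abundant in cells that are not under heat stress. Cyclophilin A speeds the turning of peptide bonds before proline and is the main target of cyclosporin A in the cytosol. The complex of drug and cyclophilin binds and blocks calcineurin, the phosphatase whose catalytic subunit the CnA transgene is named for.

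The probes were bright, and their spots were measured on every array. All 180 spots of each gene were well above background and none was saturated. The highest raw median of a spot was 52825 intensity units for *Hsp90ab1* and 101854 for *Ppia*, against a saturation value of at least 778114. After spots with an outlier flag were left out, 178 spots remained for *Hsp90ab1* and 176 for *Ppia*, with 17 to 20 per array. Spots on 1 array had an SD of 0.08 to 0.15 log2 units for *Hsp90ab1* and 0.07 to 0.15 for *Ppia*. Each array counts as 1 replicate, since its spots share an RNA sample. Both genes have near-identical pseudogene copies in the mouse genome, and cross-hybridization to these was not tested.

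*Hsp90ab1* was far lower in both models, and lowest in TAC. The geometric mean processed signal of its unflagged spots was 38858, 45265 and 48389 intensity units on WT replicates 1, 2 and 3. It was 3453, 3667 and 3712 on the TAC arrays and 10780, 10060 and 11056 on the CnA arrays, in order of replicate number. The dimmest WT array was thus several times brighter than the brightest CnA array, which in turn was well above every TAC array. Even single spots did not overlap between groups. Unflagged WT spots ran from 31391 to 52784 units, CnA spots from 8004 to 12244 and TAC spots from 2763 to 4176.

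The arrays themselves differed in brightness by group, and levels were therefore scaled before testing. WT arrays had a 75th percentile of 441.9 ± 13.7 intensity units (SD, n = 3), against 269.1 ± 9.1 for TAC and 289.7 ± 9.2 for CnA, without overlap between WT and the models. Scaled levels are log2 signal minus the log2 75th percentile of the same array. Under this scaling, *Hsp90ab1* stood at 6.51, 6.67 and 6.73 on WT replicates 1 to 3, at 3.72, 3.71 and 3.81 on the TAC arrays, and at 5.25, 5.14 and 5.2 on the CnA arrays. WT averaged 6.64 ± 0.12, TAC 3.75 ± 0.05 and CnA 5.20 ± 0.06 (SD, n = 3). The order WT, CnA, TAC held without overlap on both scales.

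**Figure D1:**
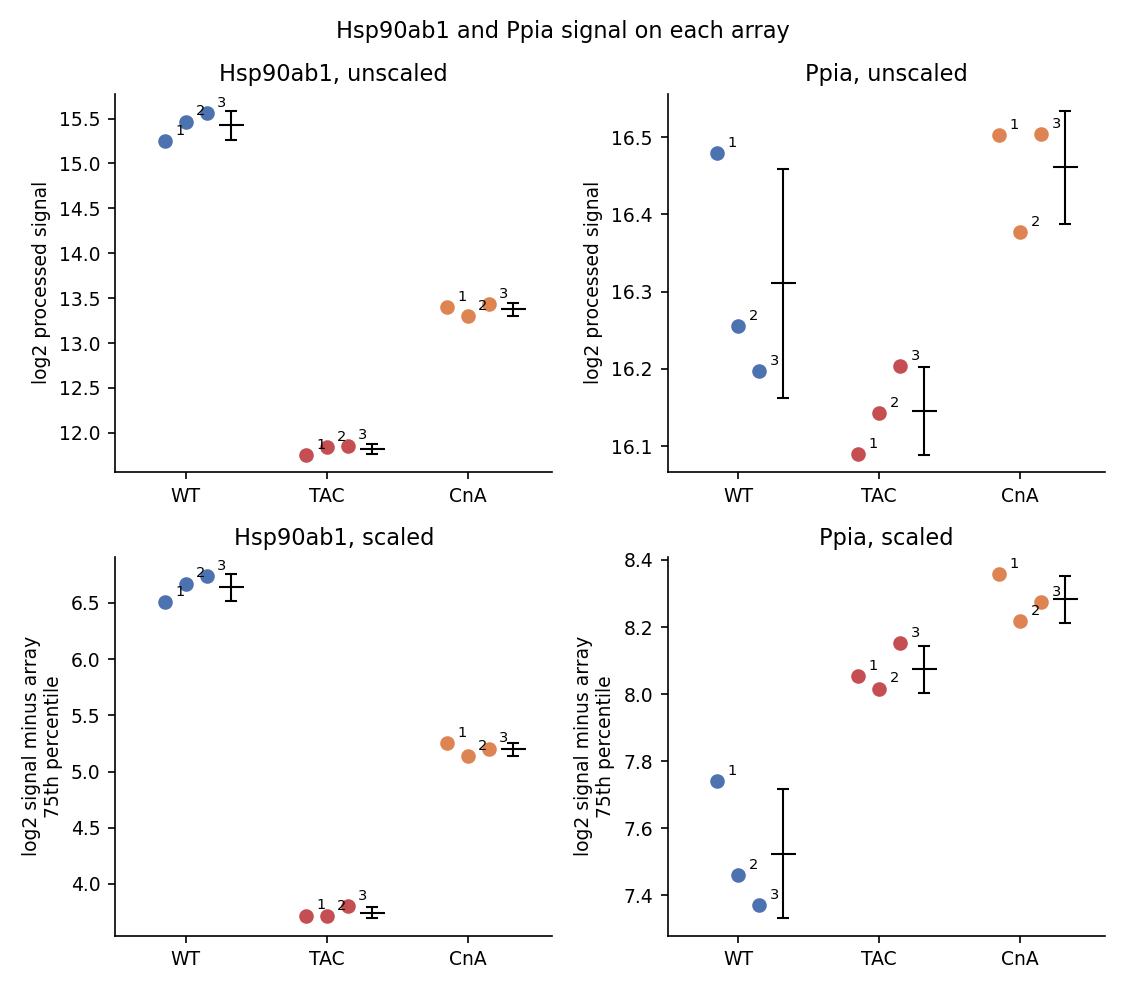
Signal of *Hsp90ab1* (left) and *Ppia* (right) on each array, before scaling (top, mean log2 processed signal of the spots) and after scaling to the array's 75th percentile (bottom, log2 units). Points are arrays labelled by replicate number, and black bars give the group mean with SD (n = 3); the vertical ranges differ between panels. *Hsp90ab1* falls from 6.64 in WT to 3.75 in TAC and 5.20 in CnA after scaling. The *Ppia* arrays of WT overlap both models before scaling and lie below both after it. Under quantile normalization, which is not plotted here, they lie above TAC.

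From WT to TAC, *Hsp90ab1* changed by -2.89 log2 units (standard error 0.10), to a level 7.42-fold lower (limma, adjusted p = 3.6e-07). Calls are common in this comparison: 60.1% of the 44224 tested probes passed an adjusted p of 0.05, 39.6% as higher and 20.5% as lower in TAC, and the groups did not overlap for 69.1%. The size of the change is less common, since 3.1% of the tested probes fell by more. Under this scaling the median tested probe rose by 0.32 log2 units in TAC, so that relative to it *Hsp90ab1* changed by -3.21. From WT to CnA the change was -1.44 log2 units (standard error 0.10), or 2.71-fold lower (limma, adjusted p = 1.1e-05). Here 56.8% of probes were called, 36.2% as higher and 20.5% as lower, and 62.4% did not overlap. A larger fall was seen for 7.22% of the probes, and relative to the median shift of 0.22 the change was -1.66. Both comparisons use the same WT arrays.

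The models also differed from each other in *Hsp90ab1*. The level was 2.74-fold higher in CnA than in TAC, or 1.45 log2 units (standard error 0.10; limma, adjusted p = 6.5e-05), where the median probe stood at -0.04. Of all tested probes 17.4% were called in this comparison, 10.5% as higher and 6.89% as lower in CnA, and 46.1% did not overlap between the groups. A larger rise was seen for 2.8%. All 3 CnA arrays exceeded all 3 TAC arrays, with a gap of 1.33 log2 units between the nearest arrays. In whole tissue a smaller number of cells that make a transcript and less of that transcript per cell cannot be told apart.

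*Ppia* behaved differently, and its change against WT depended on how arrays were put on a common scale. Before scaling, its signal was 91335, 78248 and 75128 intensity units on WT replicates 1, 2 and 3. The TAC arrays gave 69752, 72351 and 75484 units and the CnA arrays 92835, 85101 and 92956. The WT range overlapped both models, while every CnA array was above every TAC array. Unscaled group means differed from WT by -0.17 log2 units in TAC and by 0.15 in CnA.

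After scaling, *Ppia* was at 7.74, 7.46 and 7.37 on WT replicates 1 to 3, at 8.05, 8.02 and 8.15 on the TAC arrays, and at 8.36, 8.22 and 8.27 on the CnA arrays. WT replicate 1 was the highest of its group in *Ppia* and the lowest in *Hsp90ab1*. WT averaged 7.52 ± 0.19, TAC 8.07 ± 0.07 and CnA 8.28 ± 0.07 (SD, n = 3), and no model array fell within the WT range. Such separation is common: 69.1% of the tested probes did not overlap between TAC and WT, and 62.4% between CnA and WT.

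Under this scaling *Ppia* was higher than WT by 0.55 log2 units in TAC (standard error 0.12, limma adjusted p = 0.0042) and by 0.76 in CnA (standard error 0.12, limma adjusted p = 0.00084), or 0.23 and 0.54 relative to the median probe. Calls in this direction are common, with 39.6% of the tested probes called higher in TAC and 36.2% in CnA. Rises beyond those of *Ppia* were seen for 34.1% and 22.1% of the tested probes. Quantile normalization, whose values the authors' deposited log2 tables match within a median of 0.0029 for other probes, changed both differences. It turned the TAC difference to -0.32 (limma, adjusted p = 0.01) and reduced the CnA difference to 0.08 (limma, adjusted p = 0.43). Over all alternatives, whose TAC differences took both signs, the adjusted p ran from 0.00024 to 0.23 in TAC (limma). In CnA it ran from 5.6e-05 to 0.43 (limma). The lowest p-values came with array weights, at differences of 0.61 in TAC and 0.84 in CnA. These weights ran from 0.17 for WT replicate 1 to 2.19 for WT replicate 2, so that WT rested unevenly on its arrays. No direction of *Ppia* in TAC therefore held over all scalings, and the rise in CnA kept its sign but not its call.

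Between the models, *Ppia* was 0.21 log2 units higher in CnA than in TAC with a standard error of 0.12, and this difference missed the threshold (limma, adjusted p = 0.27). Its 95% interval ran from -0.06 to 0.48, so that a modest rise in CnA was not separated from no difference. This interval uses a spread shared by all 3 groups, of which WT varied most. With TAC and CnA compared alone the standard error was 0.08, and the difference still missed the threshold (limma, adjusted p = 0.097). Under quantile normalization the value was 0.40 and passed (limma, adjusted p = 0.012, with 0.0029 to 0.49 over all alternatives). A test over all 3 groups at once gave an adjusted p of 7.7e-07 for *Hsp90ab1* and 0.0016 for *Ppia* (limma, moderated F), where 64.3% of all tested probes passed.

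**Figure D2:**
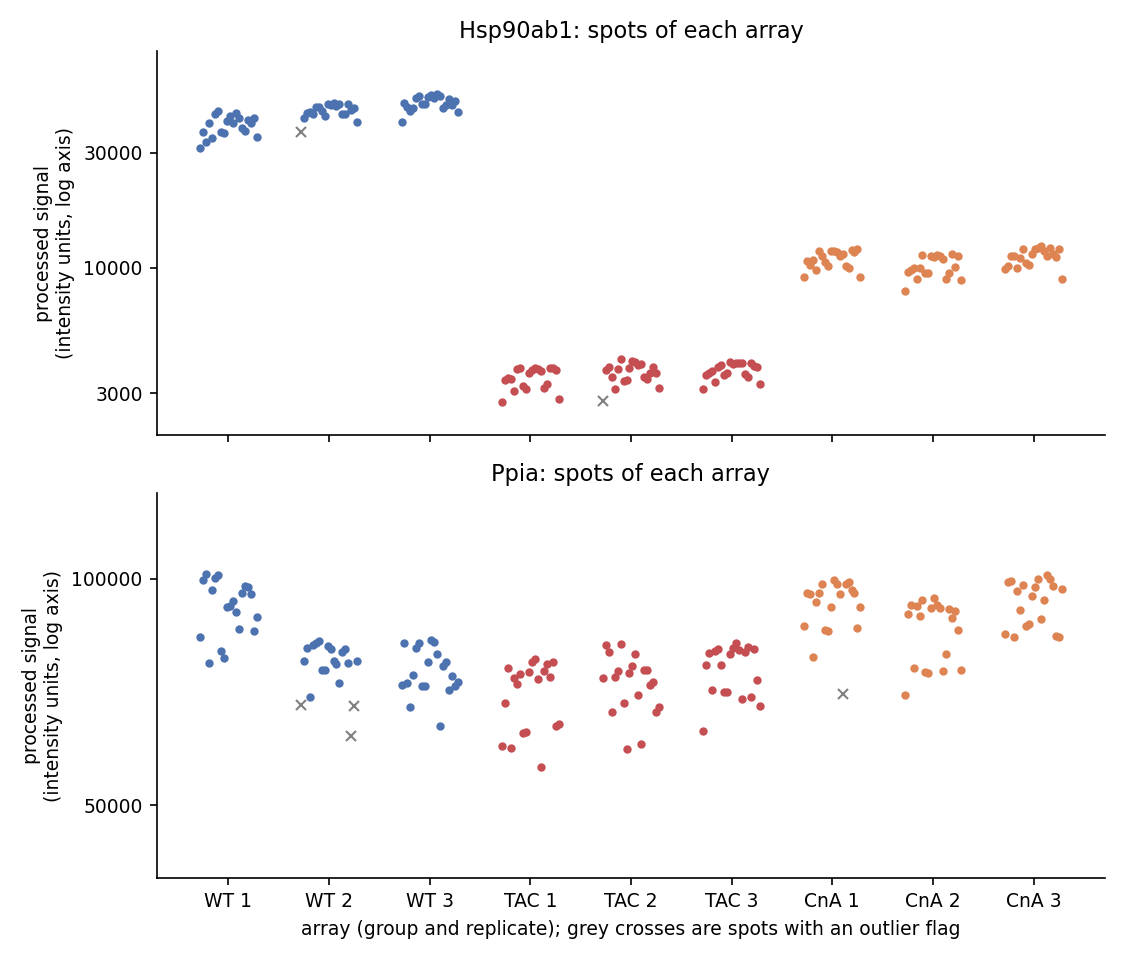
Processed signal of every spot of *Hsp90ab1* (top) and *Ppia* (bottom) on the 9 arrays, in intensity units on log axes before any scaling. Each point is a spot, and grey crosses are spots with an outlier flag that were left out. The *Hsp90ab1* spots form 3 separate bands by group, with all unflagged TAC spots at or below 4176 units, while *Ppia* spots of the 3 groups overlap.

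The spots of *Ppia* overlapped where those of *Hsp90ab1* did not. On unscaled signals, 52 of 60 TAC spots and all 59 CnA spots of *Ppia* lay within the range of the WT spots. After scaling, 9 of 60 TAC spots and none of the 59 CnA spots did. Part of the spread between spots was shared by the arrays, here with flagged spots included. The spot of *Hsp90ab1* in row 2 and column 21 was the dimmest of its 20 on 7 of 9 arrays. It was flagged on WT replicate 2 and TAC replicate 2. Over the 9 arrays it lay 0.28 log2 units below the probe's mean on average. Across the 20 spots, deviations of *Hsp90ab1* correlated between arrays with a median Pearson r of 0.85 over 36 array pairs, and those of *Ppia* with 0.67. These spots share their array positions, and the values describe the spots only.

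The difference between both probes on 1 array is free of any factor that scales the whole array. Its absolute value has no meaning, because probes bind with different strength, but its change between groups shows that the probes changed unequally. *Hsp90ab1* minus *Ppia* was -1.23, -0.79 and -0.63 log2 units on WT replicates 1, 2 and 3. It was -4.34, -4.30 and -4.35 on the TAC arrays and -3.11, -3.08 and -3.07 on the CnA arrays. The TAC and CnA arrays repeated within an SD of 0.02 each, against 0.31 in WT.

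From WT to TAC this difference changed by -3.44 log2 units, or 10.9-fold, and from WT to CnA by -2.20, or 4.60-fold. From TAC to CnA it rose by 1.24, or 2.37-fold. The groups did not overlap in any of the 3 comparisons. With 3 arrays against 3 the exact two-sided permutation test gave p = 0.10 in each, also after adjustment over the 3 comparisons, which is the smallest value it can reach. Over all 280 ways to split 9 arrays into 3 groups of 3, the exact permutation test gave p = 0.00357 for a difference among the groups, again the smallest it can give.

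**Figure D3:**
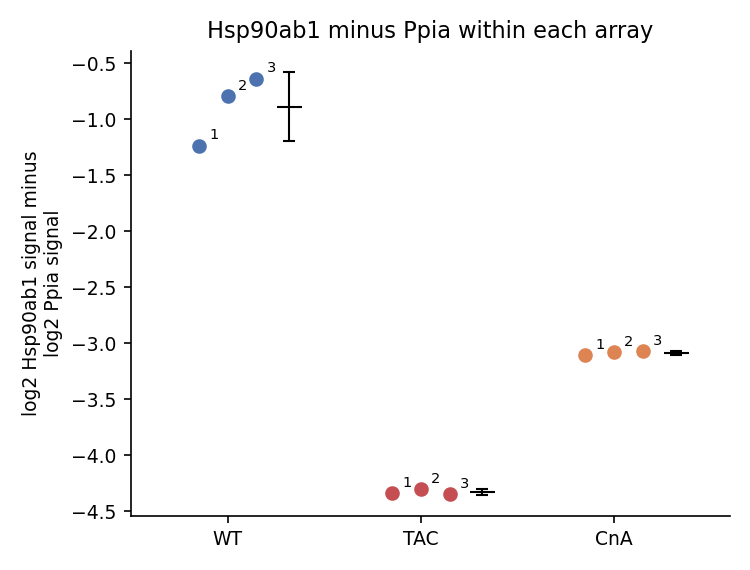
Log2 processed signal of *Hsp90ab1* minus that of *Ppia* on each array, by group, with points labelled by replicate number and black bars for the mean with SD (n = 3). The 3 TAC arrays lie near -4.33, the 3 CnA arrays near -3.09 and the WT arrays between -1.23 and -0.63.

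Set beside the 13 other genes with 20 spots, *Hsp90ab1* had the lowest fold change in both models. In TAC against WT these 13 ran from -1.59 to 1.76 log2 units with a median of -0.15, and 4 were called higher and 3 lower. In CnA against WT they ran from -1.02 to 1.51 with a median of -0.02, again with 4 called higher and 3 lower. In CnA against TAC they ran from -0.85 to 0.70 with a median of 0.14, so that the rise of 1.45 in *Hsp90ab1* lay above them all. *Ppia* lay inside the range of these genes in each comparison. Furthest from 0 among the 13 were *Tuba1b*, a tubulin gene, at 1.76 in TAC and 1.51 in CnA against WT, and *B2m*, the light chain of class I MHC, at -0.85 between CnA and TAC, where it was not called. Nearest to 0 were *Hprt*, a purine salvage enzyme, at 0.04 in TAC against WT, *Gk*, glycerol kinase, at 0.01 in CnA against WT, and *Tfrc*, the transferrin receptor, at -0.10 between the models. The next lowest gene in TAC against WT was *Tbp*, which encodes the TATA-binding protein, at -1.59. Nearest to *Ppia* in that comparison, a choice made after the values were seen, was *Rpl13a*, a ribosomal protein gene, at 0.49, and in CnA against WT *Ldhal6b*, a gene of the lactate dehydrogenase family, at 0.67.

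**Figure D4:**
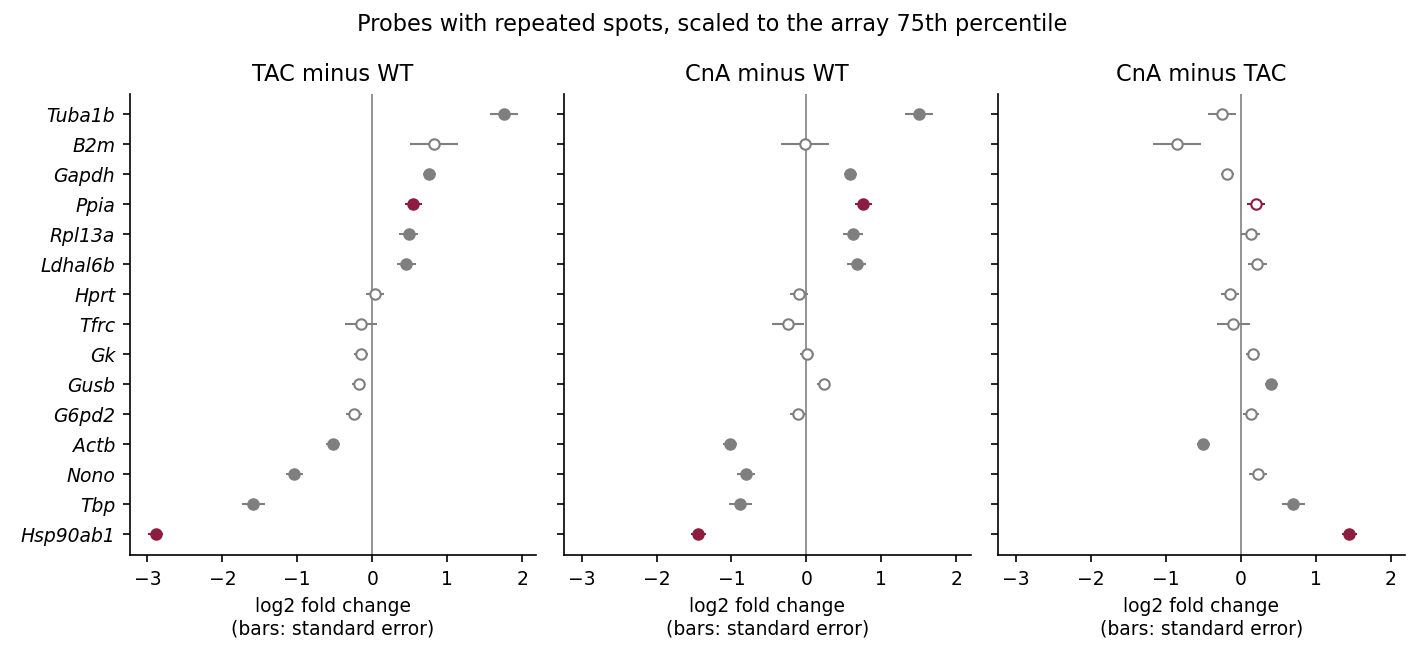
Log2 fold changes of the 15 genes with 20 spots each in TAC and in CnA, each against WT, and between CnA and TAC, after scaling to the array's 75th percentile, with standard errors from limma. Filled points passed an adjusted p of 0.05, open points did not, and *Hsp90ab1* and *Ppia* are in dark red. *Hsp90ab1* lies furthest from 0 on the low side in both models against WT and on the high side in CnA against TAC. The position of *Ppia* depends on the scaling, and other scalings are not plotted here.

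Genes with a similar profile over the 9 arrays were sought by Pearson correlation of scaled log2 levels, as a description of arrays that share their groups and their scaling. Only 103 other tested probes carried a gene symbol. For *Hsp90ab1* the closest of these were *Csprs* (r = 0.99, Spearman rho = 0.93), *Tbp* (r = 0.98, rho = 0.95) and *Nono* (r = 0.93, rho = 0.90), which encodes an RNA-binding protein of paraspeckles. *Csprs* was read from 1 spot, and *Tbp* and *Nono* from 20 spots each. *Csprs* averaged 0.75 ± 0.21 on WT arrays, -2.58 ± 0.19 on TAC arrays and -0.67 ± 0.09 on CnA arrays (SD, n = 3), the same order of groups as *Hsp90ab1*. *Tbp* stood at 0.18 ± 0.31, -1.40 ± 0.04 and -0.70 ± 0.11 in WT, TAC and CnA. *Nono* fell in both models, with log2 fold changes of -1.04 in TAC and -0.81 in CnA, but its difference of 0.23 between the models missed the threshold (limma, adjusted p = 0.23). Of all tested probes, the one named ASMM9PARTA048216 was closest (r = 0.9997), with means of 0.97 ± 0.05, -1.32 ± 0.04 and -0.16 ± 0.04 in WT, TAC and CnA; the files pair it with no gene. Such profiles are common, as 3500 probes, or 7.91%, had an r above 0.9 with *Hsp90ab1*.

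For *Ppia* the closest named genes were *Rpl13a* (r = 0.99, rho = 0.98), *Amy2a5*, an amylase gene (r = 0.97, rho = 0.93), and *Gm13305*, a predicted gene (r = 0.96, rho = 0.85). *Rpl13a* averaged 3.38 ± 0.24 on WT arrays, 3.87 ± 0.06 on TAC arrays and 4.01 ± 0.04 on CnA arrays (SD, n = 3), with WT replicates spread most as for *Ppia*. *Amy2a5* and *Gm13305* belong to groups of similar gene copies and were read from 1 spot each. The probe ASMM9PARTA045365, without a gene in the files, was closest of all (r = 0.996), and 4702 probes, or 10.6%, had an r above 0.9.

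The wider chaperone, cyclophilin and calcineurin pathways could not be followed by name. Lists of HSP90 co-chaperones, heat shock genes, prolyl isomerases, calcineurin and NFAT genes, cardiac stress genes and cell type markers of heart held 116 symbols, of which both genes described here and no other were paired with a probe. The labelled tissue was thus not checked against cardiomyocyte markers, nor were markers of other cell types read, and their part in the changes was not tested.

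**Figure D5:**
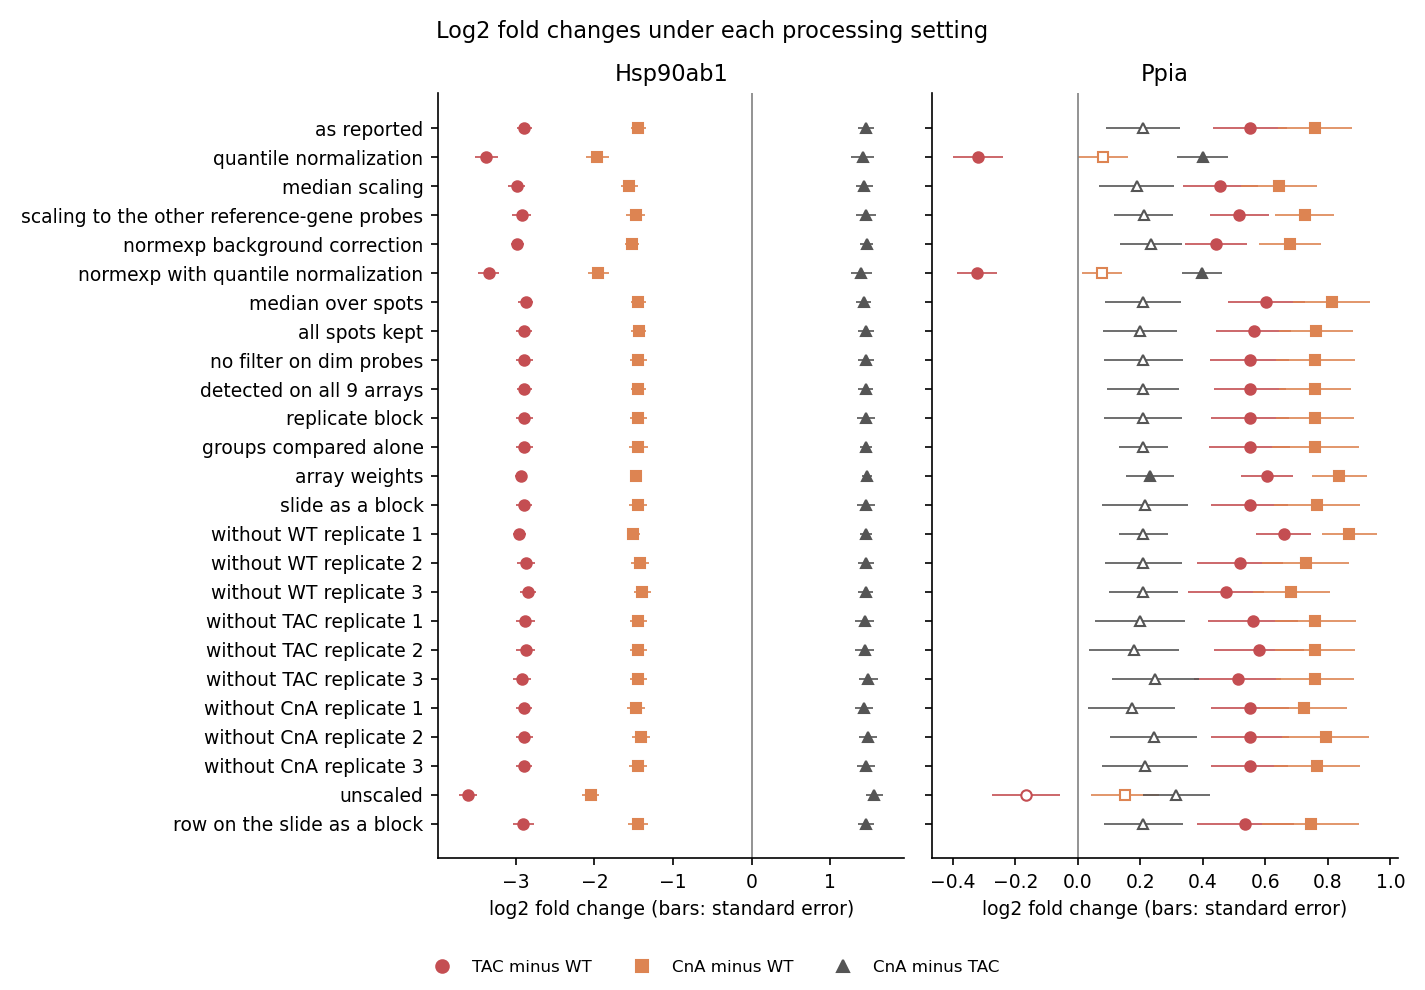
Log2 fold changes of *Hsp90ab1* (left) and *Ppia* (right) with standard errors from limma, as reported (top) and under each of 24 other settings (rows), with circles for TAC against WT, squares for CnA against WT and triangles for the models against each other. Filled symbols passed an adjusted p of 0.05, and the horizontal ranges differ. *Hsp90ab1* keeps its sign and call throughout, while *Ppia* in TAC against WT moves from 0.55 to -0.32 under quantile normalization.

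The position of arrays on the slides was read from the file headers, and 8 of 9 arrays shared a scan time, taken as 1 slide, with CnA replicate 3 on another. All WT and TAC arrays were on the shared slide, so restricting to it only left out CnA replicate 3. The value for TAC against WT could therefore not change. On the shared slide alone *Hsp90ab1* differed from WT by -2.89 in TAC and -1.44 in CnA, and by 1.45 between the models. Row 1 of that slide held all WT arrays and TAC replicate 1, and there *Hsp90ab1* differed by -2.92 and *Ppia* by 0.53. Row 2 held 2 TAC and 2 CnA arrays, which differed by 1.43 in *Hsp90ab1* and 0.20 in *Ppia*. With the slide as a block, which again amounts to leaving out CnA replicate 3, no call of either gene changed. The row number as a block changed no call either. That block placed CnA replicate 3, in row 1 of its own slide, with row 1 of the shared slide. A block for slide and row together was not run.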

How the data were processed

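Per the labels' protocols, rRNA was depleted and cRNA was labelled after random priming. The labels give Cy3 and Cy5 for every sample, with the same source for both dyes. Per the file headers, arrays were scanned in 1 channel and all signal columns are of the green channel, usually that of Cy3; each was therefore treated as a 1-colour array. Per the file headers, they were read with Agilent Feature Extraction 11.0.1.1 on a design of build mm9; the deposited processed signal is an intensity after detrending and background subtraction, not scaled between arrays. The authors also deposited tables of log2 values, made in a way not given in the sources used here and within a median of 0.0029 of quantile-normalized signals; they list neither gene, so all values come from the scanner files.

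Control spots, 20 negative control probes and spots with outlier flags were left out, log2 signals were averaged over a probe's spots, and the array's 75th percentile was subtracted. Probes well above background on all 3 arrays of a group were tested, 44224 of 59709, with 130 left out for flags. limma 3.58.1 (R 4.3.3) fitted 1 coefficient per group on 9 arrays, with Benjamini-Hochberg adjustment over all tested probes and a threshold of 0.05. In simulated data with 200 of 44224 probes changed, the fit recovered 45% to 54% of changes of 1 log2 unit. It recovered 79% to 86% of changes of 2 log2 units. The scaling of arrays was not part of this simulation. Symbols came from a RefSeq table of another build, used for names only (116 of 123 RefSeq-like identifiers matched). Named genes were both members, the other probes with 20 spots that moved most or least in each comparison, and per member the 3 named probes and the 1 probe of all with the highest r; *Ldhal6b* falls outside this rule. Raw median signals replaced mean signals in normexp, since the files used here hold no mean signal. The members and lists were chosen with earlier results of these data known.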

Additional observations from a re-analysis of the deposited data

How the results depend on the processing

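Of 319 values recomputed for 15 results under 24 other settings, 297 kept their direction, call or size. Some of these could not move. Leaving out an array does not alter fold changes or within-array differences between the other groups. The replicate block left all fold changes of both genes as they were, and the slide block repeated those found without CnA replicate 3. *Hsp90ab1* kept sign and call in all 3 comparisons under each setting run, with ranges of -3.61 to -2.84 (TAC against WT), -2.05 to -1.39 (CnA against WT) and 1.39 to 1.56 (CnA against TAC). *Ppia* in TAC against WT reversed to -0.32 under quantile normalization, to -0.32 with normexp as well, and to -0.17 without scaling. In CnA against WT it lost its call under the same settings, at 0.081, 0.076 and 0.15, and without scaling its test over 3 groups gave an adjusted p of 0.08 (limma). In CnA against TAC it gained a call at 0.40 in both quantile settings and at 0.23 with array weights. Leaving out 1 array at a time gave *Ppia* 0.47 to 0.66, 0.68 to 0.87 and 0.17 to 0.25 in the 3 comparisons, with no call changed. *Hsp90ab1* minus *Ppia* became -3.05 (TAC against WT) and 1.01 (CnA against TAC) under quantile normalization, -3.02 and 0.99 with normexp as well, and 1.22 in CnA against TAC with the median over spots. The cause was not tested. The unscaled values and the row block were chosen after seeing the data.

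The number of probes called in CnA against TAC, 7701, was 12225 with those groups alone, 15086 with array weights and 4320 to 11790 with 1 array left out. The highest count, 11790, came from leaving out WT replicate 1. Leaving out TAC replicate 1, 2 or 3 gave 4566, 4320 or 4778, and leaving out CnA replicate 1 gave 4729. Arrays with the same replicate number did not deviate together (r from -0.22 to -0.02 over 9 pairs). With the replicate number as a block, 24610, 23092 and 5355 probes were called in the 3 comparisons, no call of either gene changed, and the *Hsp90ab1* value in TAC against WT stayed -2.89 (limma, adjusted p = 2.7e-05). Precision was limited by 3 arrays per group.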

Other observations

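Both genes are used as reference genes in expression studies. Among the 15 genes with 20 spots, *Hsp90ab1* had the largest SD over the 9 arrays under each of 4 scalings: 1.25 log2 units with the 75th percentile, 1.48 with quantile normalization, 1.30 with the median and 1.27 with the other genes with 20 spots as the scale. *Ppia* ranked 9 of 15 from the smallest SD with the 75th percentile, at 0.36, and 5 of 15 with quantile normalization, at 0.19. By arithmetic on the differences within arrays, the ratio of TAC to WT of any transcript comes out 10.9-fold higher when read relative to *Hsp90ab1* than when read relative to *Ppia*, and the ratio of CnA to WT 4.60-fold higher.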
